A study of Mus musculus with 6 samples.

Results

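Sirtuins are enzymes that remove acetyl and other acyl groups from proteins and consume NAD+ in doing so. The set followed here holds 10 of the 43346 genes in the deposited counts, found by their names, each of which matched 1 row. *Sirt1*, *Sirt6* and *Sirt7* encode the nuclear sirtuins, *Sirt2* the mainly cytosolic one, and *Sirt3* and *Sirt5* mitochondrial ones. *Nampt* encodes the rate-limiting enzyme of the salvage of nicotinamide to NAD+, and *Nmnat2* one of the enzymes that complete the synthesis. *Cd38* and *Parp1* encode consumers of NAD+, a membrane-bound NAD+ hydrolase and the DNA break sensor that builds poly(ADP-ribose). NAD+ supply is also tied to the circadian clock, since *Nampt* is a known target of BMAL1 and CLOCK, and SIRT1 acts back on clock proteins.

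Polyadenylated RNA was sequenced from mouse adult fibroblasts (MAFs), primary cells grown from ear tissue of adult C57BL6/J mice, all female, and used between passages 3 and 8, at 3% oxygen. The 3 senescent samples had received 20 Gy of X-rays and 21 more days of culture, and the 3 control samples were sham irradiated. All 6 were treated with 100 nM dexamethasone over 2 hours to synchronize their clocks and collected 12 hours later, so each value belongs to a single time point. The labels do not say whether replicates are separate cultures or animals, so p-values measure the spread between these samples, which may be technical. Total counts lay between 50288454 and 82229553 per library, and the lowest count of any of the 10 genes was 199. A fit across all 17589 genes with enough counts included all 10 of them.

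The labels were checked with known markers. *Cdkn1a*, which encodes the cell cycle inhibitor p21, rose from 123 ± 2.01 to 620 ± 16.3 CPM (counts relative to the TMM-scaled library size; mean ± SD of the 3 control libraries, then of the 3 senescent ones, here and below), and *Mki67*, which encodes the proliferation marker Ki-67, fell from 589 ± 17.3 to 9.60 ± 1.49 CPM. All 7 genes of the senescence and proliferation list changed (adjusted p below 0.05, edgeR), 3 of them higher and 4 lower. Of 8 fibroblast markers, led by *Col1a2* in control cells, 2 were higher and 5 lower in senescent cells, and none was absent. By the same rule, 36.2% of all tested genes were higher and 34.1% lower. The 5 chondrocyte markers, led by *Col2a1*, summed to between 4503 and 5007 CPM in control and between 280 and 368 CPM in senescent libraries, with *Matn1* at 0 to 10 counts. In bulk RNA, fewer cells of a type and less RNA per cell cannot be told apart, and the part of such shifts in the results below was not tested.

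Senescent replicate 3 stood apart from the other senescent libraries. The median squared difference of its counts from those of senescent replicates 1 and 2 was 12.9 and 16.2 times what sampling noise gives, against 2.13 times between replicates 1 and 2. To a lesser degree, control replicate 1 differed from control replicates 2 and 3 by 4.35 and 4.03 times, against 1.77 between those. The deviation of senescent replicate 3 followed the GC content of the transcript. All genes averaging 100 counts or more were put into 5 bins by GC content. The median log2 difference of replicate 3 from the mean of replicates 1 and 2 was 0.28 in the bin with the lowest GC content and -0.46 in the bin with the highest. The 10 genes showed the same split. *Nampt*, *Cd38* and *Sirt1*, whose transcripts have 40.3%, 40.9% and 44.0% GC, deviated by 0.35, 0.36 and 0.39, and *Nmnat2*, at 50.1% GC, by 0.09. *Sirt2*, *Sirt3*, *Sirt5*, *Sirt6*, *Sirt7* and *Parp1*, at 51.3% to 58.4% GC, deviated by -0.51 to -0.34. Values without this library, and values after each library's trend with GC content was removed, are therefore given beside the results they change most. The GC term was chosen after seeing the data. The difference between the groups followed GC content too. Its median log2 fold change was 0.18 in the bin with the lowest GC content and -0.33 in the highest, with replicate 3 included. The GC term also removes this trend between the groups, so it may take out real difference and is not a correction of replicate 3 alone.

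**Figure D1:**
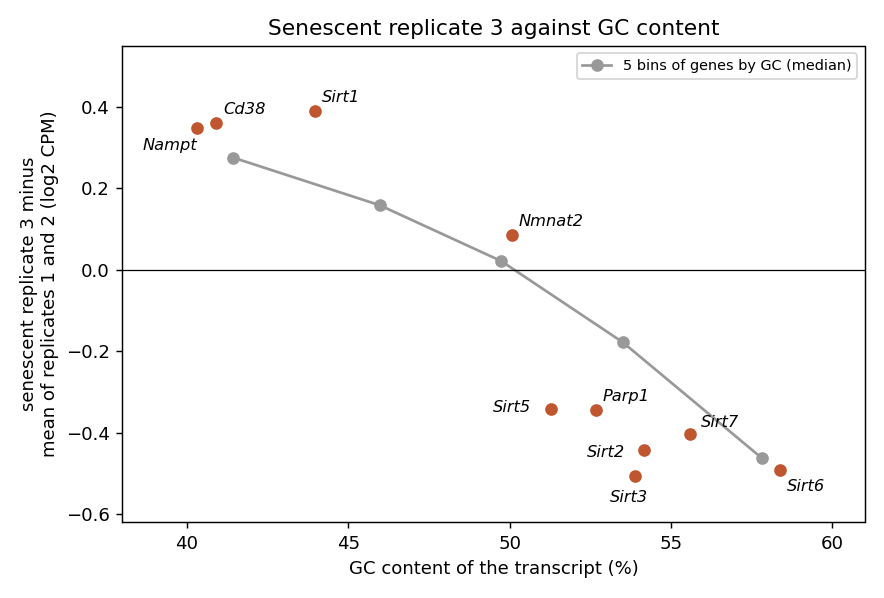
The difference between senescent replicate 3 and the mean of senescent replicates 1 and 2 (log2 CPM) is plotted against transcript GC content (%) for the 10 genes (orange), with the medians of 5 bins of all genes averaging 100 counts or more (grey line). The 3 genes with the lowest GC content lie between 0.35 and 0.39, and the 6 with the highest lie between -0.51 and -0.34.

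Of the 10 genes, *Nmnat2* and *Sirt1* were higher in senescent cells and *Parp1*, *Sirt6* and *Cd38* lower (edgeR quasi-likelihood test, adjusted p below 0.05). *Sirt2*, *Sirt3*, *Sirt5*, *Sirt7* and *Nampt* did not pass. Among all genes tested, 36.2% were higher and 34.1% lower by the same rule, so that 2 and 3 of 10 did not exceed the shares among genes in general. With the limits in the study's methods, a more than 2-fold difference with an unadjusted p below 0.05, *Nmnat2* was higher and *Sirt6* and *Parp1* were lower, where 17.8% and 12.3% of all genes were called. The paper's results section prints a smaller P limit with the same fold limit. *Sirt6* did not meet that P limit (unadjusted p = 0.000297, edgeR). The control and senescent libraries did not overlap in 7 of the 10 genes, beside 75.3% of all genes. The median log2 fold change of the 10 genes was -0.19, against 0.01 for all genes. With 3 samples per group, the smallest p of an exact permutation test on a single gene is 0.1.

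**Figure D2:**
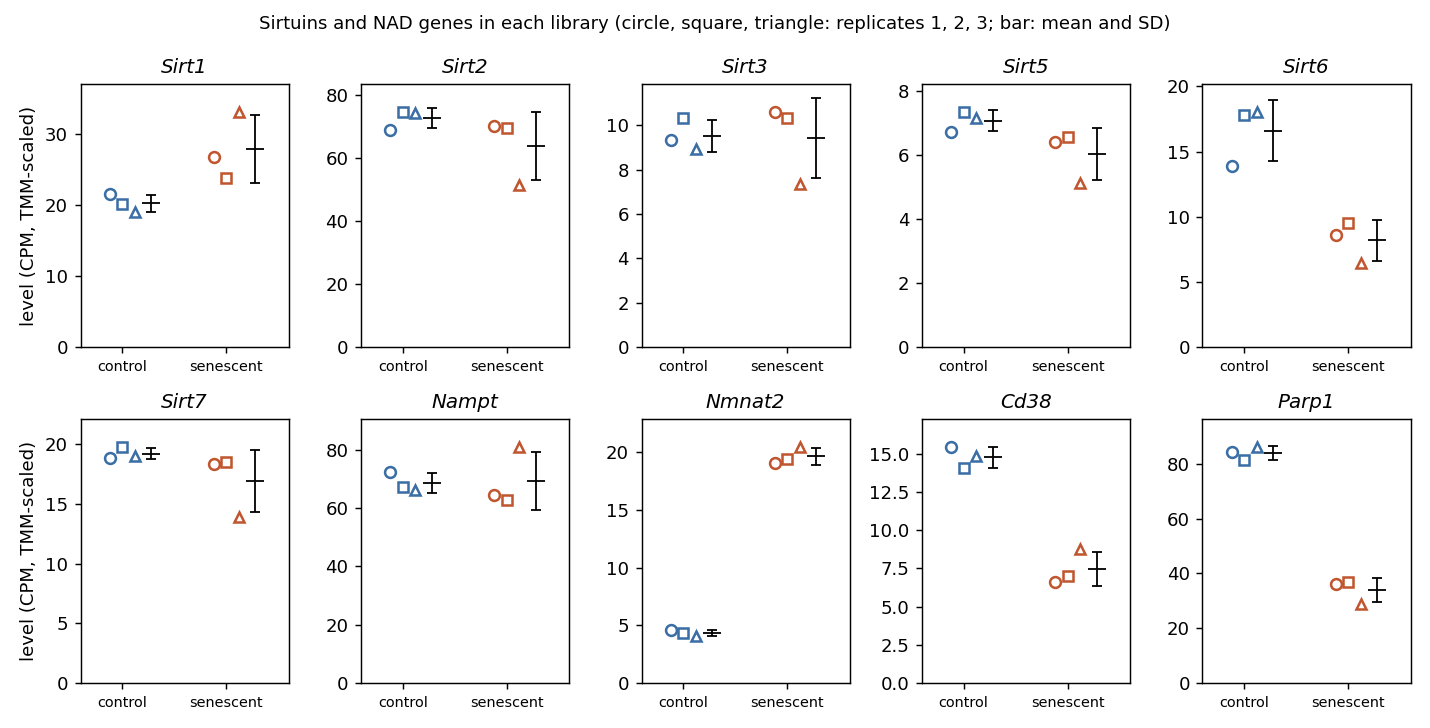
Each panel shows 1 gene in the 3 control (blue) and 3 senescent (orange) libraries, as TMM-scaled CPM on an axis that starts at 0, with the mean and SD as bars beside the points. *Nmnat2* and *Parp1* show the widest gaps between groups, and senescent replicate 3 (triangle) is the lowest senescent library for *Sirt2*, *Sirt3*, *Sirt5*, *Sirt6*, *Sirt7* and *Parp1* and the highest for the other 4 genes.

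The promoters of the 10 genes were searched for the E-box that BMAL1 and CLOCK bind, CACGTG, and for the AP-1 site TGANTCA, both of which read the same on either strand and can share at most 2 letters where they meet. All 10 genes matched the RefSeq promoters (build GRCm38.p6, 250 bases before to 50 after each start site), with 12 entries. Only these start sites were searched, and they can lie apart from the ends of the counted genes. The counted *Sirt1* reaches 63381704 on the minus strand, upstream of its RefSeq start. The counted *Sirt5* begins at 43370710, downstream of its RefSeq start at 43365535. CACGTG was in the windows of *Sirt1* and *Parp1*, and in 7.15% of all 32851 promoters. TGANTCA was in none of the 12 windows and in 7.81% of all promoters. The E-boxes of *Sirt1* begin at -115 and -43 from its start site (position 63339035 of chromosome 10, minus strand), and that of *Parp1* begins at -49 from its start site (position 180568891 of chromosome 1, plus strand). The 250 bases upstream of each start are shown because these are the only E-boxes found in the 12 windows, with CACGTG in capitals. They lie at chr10:63339036-63339285 and chr1:180568641-180568890.
Sirt1: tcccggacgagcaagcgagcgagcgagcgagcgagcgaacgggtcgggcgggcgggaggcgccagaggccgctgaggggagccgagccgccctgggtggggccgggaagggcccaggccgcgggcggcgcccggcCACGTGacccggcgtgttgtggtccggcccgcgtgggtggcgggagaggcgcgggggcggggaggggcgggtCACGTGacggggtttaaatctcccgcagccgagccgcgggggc
Parp1: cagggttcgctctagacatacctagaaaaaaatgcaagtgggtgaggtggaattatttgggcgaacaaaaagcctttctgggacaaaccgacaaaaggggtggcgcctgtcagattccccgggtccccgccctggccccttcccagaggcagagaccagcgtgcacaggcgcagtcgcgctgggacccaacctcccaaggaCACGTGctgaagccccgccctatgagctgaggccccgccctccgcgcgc
The window of *Nampt* held neither motif, which says only that these letters are not in these 300 bases. The windows also differed in CG dinucleotides, of which *Sirt1* had 47, *Nampt* 36 and *Cd38* 1, with 15 to 24 in those of the other genes and a median of 7 over all promoters.

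*Nmnat2*, which encodes a short-lived enzyme that makes NAD+ from NMN and ATP and is best known for keeping axons alive, had the largest change of the 10. The gene (ENSMUSG00000042751) spans 152954993 to 153119261 of chromosome 1 in mm10, the build of all gene positions here. It was at 4.61, 4.37 and 4.07 CPM in control replicates 1, 2 and 3 and at 19.1, 19.4 and 20.4 CPM in senescent replicates 1, 2 and 3. All senescent libraries were far above all control libraries, and the spread within each group was small. The log2 fold change was 2.18 (SE 0.08), a 4.52-fold difference (adjusted p = 2.68e-07, edgeR), and 12.1% of all genes changed by more in either direction. Of the other genes for this step, *Nmnat1*, whose product is nuclear, fell from 9.14 ± 0.424 to 6.57 ± 0.486 CPM (adjusted p = 0.00190, edgeR). *Nmnat3*, whose product is mitochondrial, was at 6.31 ± 0.265 and 6.14 ± 0.340 CPM and did not pass (adjusted p = 0.721, edgeR). Of 7 neuron and Schwann cell markers, 5 were tested, with 3 higher and 2 lower in senescent cells, beside 36.2% and 34.1% of all genes. *Snap25*, counted as higher, had enough counts only in senescent cells, so it could only be called higher. The summed level of the 7 was 17.1 to 19.7 CPM in control and 37.8 to 48.2 CPM in senescent libraries. Most of this was *Stmn2* and *Tubb3*, while *Snap25*, *Rbfox3* and *Sox10* had 0 counts in every control library and at most 0.429 CPM in a senescent one. The part of other cell types in the *Nmnat2* result was not tested.

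*Nampt* (ENSMUSG00000020572, chromosome 12 from 32820335 to 32853369) was at 72.4, 67.2 and 66.0 CPM in control replicates 1, 2 and 3 and at 64.4, 62.5 and 80.8 CPM in senescent replicates 1, 2 and 3. The senescent libraries lay on both sides of the control libraries. Its log2 fold change was 0.02 with a 95% confidence interval from -0.22 to 0.25 (adjusted p = 0.903, edgeR). Without senescent replicate 3, *Nampt* was lower in senescent cells with a log2 fold change of -0.10 (adjusted p = 0.0494, edgeR), and with the GC term the value was -0.16 (adjusted p = 0.00106, edgeR). Both values lie inside the interval above. *Arntl*, the gene of BMAL1, was at 24.9, 24.3 and 23.5 CPM in the control and 53.7, 53.2 and 53.3 CPM in the senescent libraries, a log2 fold change of 1.14 (SE 0.06). The 11 clock genes followed were mixed, with 5 higher and 5 lower, beside 36.2% and 34.1% of all genes. The genes whose log2 CPM was most like that of *Nampt* over the 6 libraries were *Psma4*, *Akap7* and *Ppp2ca*, with Pearson correlations of 0.998, 0.997 and 0.996. These are 3 of 120 genes with a correlation over 0.95 among the 12957 compared, and they were picked for this profile, so it is a description. *Nampt* was highest in senescent replicate 3, and the part of that library in the likeness was not tested.

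*Sirt1* (ENSMUSG00000020063, chromosome 10 from 63319005 to 63381704) encodes the nuclear deacetylase that acts on histones, p53 and clock proteins. It was at 21.5, 20.1 and 19.0 CPM in control replicates 1, 2 and 3 and at 26.8, 23.8 and 33.0 CPM in senescent replicates 1, 2 and 3. The groups did not overlap, and the highest senescent value was that of replicate 3. The log2 fold change was 0.46 (SE 0.12, adjusted p = 0.0104, edgeR), a 1.38-fold difference, and 57.8% of all genes changed by more. It was 0.33 without senescent replicate 3 (adjusted p = 0.000497, edgeR) and 0.35 with the GC term (adjusted p = 0.000655, edgeR). Over the 6 libraries, *Clns1a*, *Irgm2* and *AW146154* were most like *Sirt1*, with Pearson correlations of 0.9999, 0.999 and 0.999, and 696 of 12957 genes had one over 0.95. The part of senescent replicate 3 in this likeness was not tested. The genes of a pair of SIRT1-binding proteins went in opposite directions. *Ccar2*, whose product DBC1 inhibits SIRT1, fell from 49.8 ± 3.26 to 32.2 ± 3.55 CPM (adjusted p = 0.000546, edgeR). *Rps19bp1*, whose product AROS is described as an activator, rose from 10.1 ± 0.273 to 16.2 ± 2.12 CPM (adjusted p = 0.000765, edgeR).

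*Sirt6* (ENSMUSG00000034748, chromosome 10 from 81621785 to 81627797) encodes a chromatin-bound sirtuin with roles in DNA repair and in silencing at telomeres and repeats. It was at 13.9, 17.8 and 18.0 CPM in control replicates 1, 2 and 3 and at 8.64, 9.52 and 6.45 CPM in senescent replicates 1, 2 and 3. Every senescent library was below every control library, although control replicate 1 and senescent replicate 3 were low within their groups. Its log2 fold change was -1.02 (SE 0.16), a 2.03-fold difference (adjusted p = 0.000773, edgeR). It was -0.86 without senescent replicate 3 and -0.72 with the GC term, in both cases under the fold limit of the study's methods and still past an adjusted p of 0.05. *Sirt6* had the highest GC content of the 10 transcripts, 58.4%.

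The other 4 sirtuins of the set did not pass the test. *Sirt2* (ENSMUSG00000015149, chromosome 7 from 28766735 to 28788665), which deacetylates tubulin among other targets, was at 69.1, 74.8 and 74.5 CPM in control and 70.5, 69.8 and 51.6 CPM in senescent replicates 1, 2 and 3. Senescent replicates 1 and 2 lay within the control range, and replicate 3 was well below it. The log2 fold change was -0.19 (95% confidence interval -0.46 to 0.09) and -0.05 without senescent replicate 3. *Sirt3* (ENSMUSG00000025486, chromosome 7 from 140863670 to 140882309), the main mitochondrial deacetylase, was at 9.34, 10.3 and 8.91 CPM in control and 10.6, 10.3 and 7.35 CPM in senescent replicates 1, 2 and 3. Its groups overlapped, with senescent replicate 3 again the lowest of all. Its log2 fold change was -0.02 (95% confidence interval -0.36 to 0.32), and it was 0.14 without senescent replicate 3 and 0.13 with the GC term. In GENCODE M21, exons of *Sirt3* overlap those of *Ric8* and *Psmd13* on the other strand by 418 and 342 bases, their counts of 3288 to 7748 per library compare with 436 to 818 for *Sirt3*, and the strand setting of the counting is not given in the sources used here.

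*Sirt5* (ENSMUSG00000054021, chromosome 13 from 43370710 to 43395202), a mitochondrial desuccinylase, was at 6.72, 7.35 and 7.15 CPM in control and 6.42, 6.56 and 5.12 CPM in senescent replicates 1, 2 and 3. The groups did not overlap, but senescent replicates 1 and 2 lay just under the lowest control library. The log2 fold change was -0.23 (95% confidence interval -0.50 to 0.04, adjusted p = 0.107, edgeR) and -0.12 without senescent replicate 3. *Sirt7* (ENSMUSG00000025138, chromosome 11 from 120618372 to 120625240), a nucleolar sirtuin, was at 18.9, 19.7 and 19.0 CPM in control and 18.3, 18.6 and 13.9 CPM in senescent replicates 1, 2 and 3. As for *Sirt5*, the groups were apart by a small margin in replicates 1 and 2. Its log2 fold change was -0.18 (95% confidence interval -0.45 to 0.09, adjusted p = 0.191, edgeR), -0.05 without senescent replicate 3 and 0.03 with the GC term. Its exons overlap those of *Mafg* on the same strand by 124 bases in GENCODE M21. *Sirt4*, the remaining sirtuin gene, was counted with the other NAD genes. It fell from 11.4 ± 0.441 to 7.41 ± 0.865 CPM (adjusted p = 0.000864, edgeR).

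*Parp1* (ENSMUSG00000026496, chromosome 1 from 180568924 to 180601254) fell most. It was at 84.5, 81.2 and 86.1 CPM in control replicates 1, 2 and 3 and at 35.9, 37.0 and 28.7 CPM in senescent replicates 1, 2 and 3. The highest senescent library had less than any control library by a wide margin. The log2 fold change was -1.31 (SE 0.10), a 2.48-fold difference (adjusted p = 1.13e-05, edgeR), and 22.6% of all genes changed by more. It was -1.19 both without senescent replicate 3 and with the GC term. *Parp2* and *Parp3*, whose products also respond to DNA breaks, were lower as well, with log2 fold changes of -0.79 and -0.89. *Parg*, whose product takes poly(ADP-ribose) chains apart, was higher by 0.36 on the log2 scale (adjusted p = 0.00471, edgeR).

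*Cd38* (ENSMUSG00000029084, chromosome 5 from 43868809 to 43912375) was at 15.4, 14.1 and 14.9 CPM in control replicates 1, 2 and 3 and at 6.62, 7.02 and 8.76 CPM in senescent replicates 1, 2 and 3. The groups were well apart, with senescent replicate 3 the nearest to the control libraries. Its log2 fold change was -0.98 (SE 0.12), a 1.98-fold difference (adjusted p = 0.000147, edgeR), and so just under the fold limit of the study's methods. It was -1.10 without senescent replicate 3 and -1.15 with the GC term, beyond that limit. *Bst1*, the neighbouring family member whose product CD157 also cleaves NAD+, fell too, from 29.0 ± 1.44 to 17.9 ± 1.13 CPM (adjusted p = 0.000100, edgeR). CD38 is a surface protein of many leukocytes and of endothelium. The 8 leukocyte markers, led by *Cd68*, summed to 5.64 to 6.09 CPM in control and 9.89 to 11.9 CPM in senescent libraries. *Cd3e* had 0 to 2 counts in every library. The 5 endothelial markers, led by *Tek* in control cells, summed to 2.43 to 2.83 and 7.52 to 8.34 CPM. In each list 4 of 4 tested were higher, beside 36.2% of all genes. Among them, *Ptprc*, *Itgam*, *Cdh5* and *Kdr* had enough counts in all 3 libraries only in senescent cells. Their direction is therefore no separate support. The part of these cell types in the *Cd38* result was not tested. The 5 keratinocyte markers, led by *Krt10*, stayed between 2.82 and 4.08 CPM in all libraries.

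**Figure D3:**
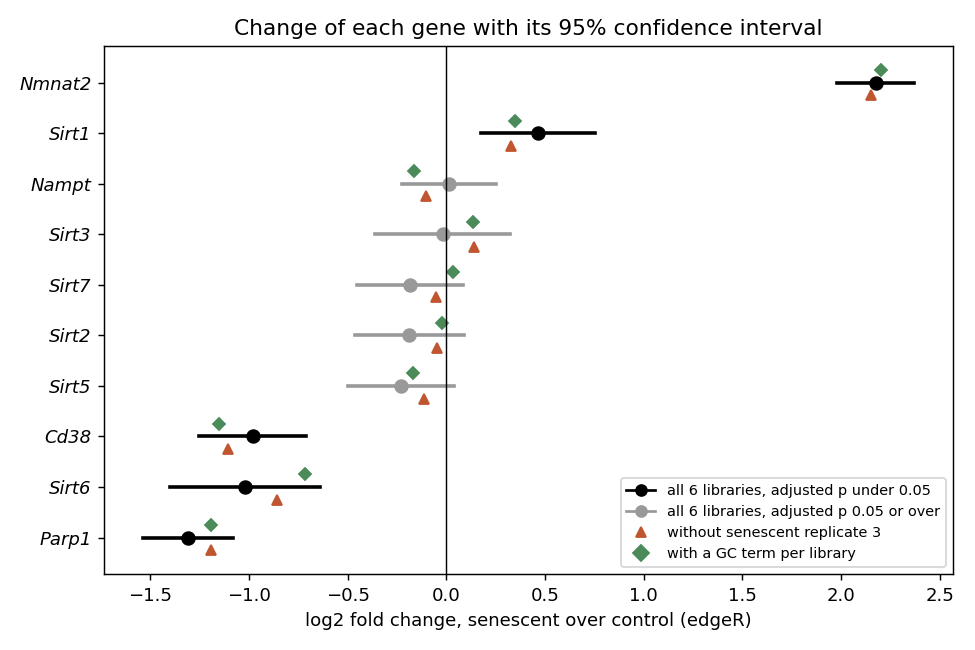
Points give the log2 fold change of each gene, senescent over control, with its 95% confidence interval as a line (black, adjusted p under 0.05; grey, not). Triangles give the value without senescent replicate 3 and diamonds the value with a GC term: the 5 called genes keep their direction and call, and *Nampt* and *Sirt3* change sign under both.

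Levels of different genes were compared per length, as RPKM from TMM-scaled CPM and the gene length in the deposited file. In control cells, *Sirt2* was highest at 20.4 ± 0.905 RPKM, followed by *Parp1* at 15.9 ± 0.463 and *Nampt* at 15.1 ± 0.741 RPKM, whose libraries overlapped. *Sirt3*, *Sirt6*, *Sirt5* and *Cd38* followed between 6.06 and 4.91 RPKM, each overlapping its neighbour in the order. *Sirt1* and *Sirt7*, at 3.79 and 3.73 RPKM, overlapped as well, and *Nmnat2* was lowest at 0.752 ± 0.0472 RPKM. In senescent cells, *Sirt2* and *Nampt* led at 17.9 ± 3.00 and 15.2 ± 2.20 RPKM, and *Parp1* was next at 6.40 ± 0.850 RPKM. *Sirt1* ranked 5 of 10 at 5.23 ± 0.889 RPKM, against 8 of 10 in control cells, and *Nmnat2* ranked 7 at 3.40 ± 0.122 RPKM. *Sirt6* and *Cd38* came last, at 2.94 ± 0.568 and 2.48 ± 0.377 RPKM. Of these neighbours, only *Nampt* and *Parp1*, and *Sirt5* and *Nmnat2*, did not overlap. The order depends on the lengths used. The deposited lengths of *Sirt3* and *Sirt5* are 1570 and 1367 bases, and the merged exons of GENCODE M21 span 5973 and 6093. With the latter, *Sirt3* and *Sirt5* were at 1.59 and 1.16 RPKM in control cells, below *Sirt7*, and *Parp1* was above *Sirt2*. In senescent cells *Nampt* then led at 13.7 RPKM, ahead of *Sirt2* at 12.7 RPKM, and *Sirt3* and *Sirt5* came last at 1.58 and 0.990 RPKM. *Sirt1* ranked 4 in senescent and 6 in control cells with these lengths, and *Nmnat2* 5 and 10.

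**Figure D4:**
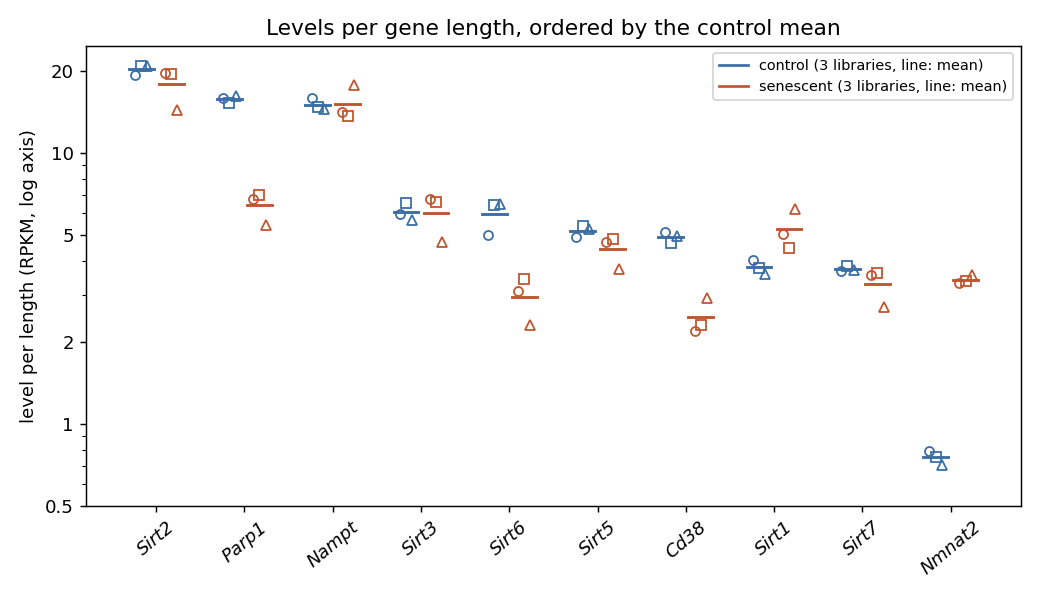
Levels per gene length (RPKM, log axis) are shown for the 3 control (blue) and 3 senescent (orange) libraries, ordered by the control mean, with a line at each mean. *Parp1* drops below *Nampt* and *Nmnat2* rises from 0.752 to 3.40 RPKM, while *Nampt* and *Sirt2* remain near the top in both groups.

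Within the 6 sirtuins of the set, *Sirt2* made up 44.7% to 45.9% of the summed RPKM in control and 42.4% to 46.1% in senescent libraries. The share of *Sirt6* was 11.6%, 13.7% and 14.2% in control and 7.24%, 8.05% and 6.79% in senescent replicates 1, 2 and 3. The share of *Sirt1* was 9.39%, 8.04% and 7.84% in control and 11.7%, 10.5% and 18.2% in senescent replicates 1, 2 and 3. The shares of neither gene overlapped between the groups, and replicate 3 was the most extreme senescent library in both. *Sirt5* and *Sirt7* kept to 10.96% to 11.5% and 7.93% to 8.55% over all 6 libraries. With GENCODE M21 lengths the shares differ: *Sirt5* made up 3.57% to 3.83% and *Sirt3* 4.78% to 6.22% over all 6 libraries. The share of *Sirt6* was then 17.2% to 20.8% in control and 9.83% to 12.1% in senescent libraries, and that of *Sirt1* 11.4% to 13.9% and 15.8% to 26.3%, again without overlap. With the deposited lengths, the summed level was 42.9, 46.9 and 45.5 RPKM in control and 42.9, 42.4 and 34.1 RPKM in senescent replicates 1, 2 and 3, and with GENCODE M21 lengths its mean was 30.7 ± 1.43 and 26.7 ± 2.77 RPKM. The ratio of *Parp1* to *Sirt1*, both of which encode nuclear users of NAD+, was 3.96, 4.07 and 4.56 in control and 1.35, 1.57 and 0.876 in senescent replicates 1, 2 and 3, on the RPKM scale. The ratio of *Nampt* to *Nmnat2*, which encode consecutive steps of the salvage route, was between 19.6 and 20.6 in control and between 4.09 and 5.02 in senescent libraries.

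A list of 48 further genes of NAD metabolism was followed beside the set, and 42 of them had enough counts for the test. In senescent cells 13 of the 42 were higher and 18 lower, beside 36.2% and 34.1% of all genes, and their median log2 fold change was -0.11. The counts were 16 higher and 21 lower both without senescent replicate 3 and with the GC term, and 18 and 18 with scaling by library size alone. The calls among all genes moved too, from 6360 higher and 6005 lower of 17589. They were 7052 and 6643 of 17779 without senescent replicate 3, and 7195 and 6351 of 17425 with the GC term. With library size alone they were 6929 and 5370 of 17589. Among genes of NAD+ synthesis, 7 of 12 tested were lower and 2 higher, where 34.1% and 36.2% of all genes were. *Naprt*, which opens the route from nicotinic acid, was at 19.5, 21.6 and 22.8 CPM in control and 4.17, 5.36 and 3.29 CPM in senescent replicates 1, 2 and 3, a log2 fold change of -2.32 (SE 0.17). All senescent libraries were far below the control libraries. *Nadsyn1*, which ends that route, was lower with a log2 fold change of -0.85, *Nmrk1*, which phosphorylates nicotinamide riboside, with -0.44, and *Pnp*, a purine nucleoside phosphorylase that also cleaves it, with -0.87. Of the further genes, only *Aox1*, *Tiparp*, *Nnmt*, *Ido1*, *Naprt* and *Haao* are named by a rule on size and p, and the others, *Nmnat1*, *Ccar2* and *Bst1* among them, after their values were seen.

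In the route from tryptophan, *Ido1* had 1, 2 and 2 counts in control and 41, 45 and 56 counts in senescent replicates 1, 2 and 3. *Ido2* had 6, 14 and 15 counts in control and 63, 93 and 96 counts in senescent libraries. Both encode enzymes of the first step and passed the test (adjusted p = 1.50e-05 and 9.84e-05, edgeR), at levels of no more than 1.17 CPM. *Haao*, of a later step, fell from 0.608 ± 0.173 to 0.0525 ± 0.0177 CPM (adjusted p = 7.61e-05, edgeR). *Ido1* and *Ido2* had enough counts for the test in all 3 libraries only in senescent cells, *Haao* only in control cells. The p-values of these genes are therefore no separate support for their direction. *Qprt*, *Kmo*, *Kynu*, *Tdo2*, *Acmsd* and *Nmrk2* had 0 counts in all control libraries and at most 12 counts in a senescent one, and were not tested. A count of 0 allows up to 3 counts in a library, between 0.0502 and 0.0613 CPM in control libraries, and this covers counting error only.

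Of the 20 genes of NAD+ consumers and their turnover, 6 were higher and 6 lower, neither above the shares of all genes (36.2% and 34.1%). *Tiparp*, which encodes a mono-ADP-ribosyltransferase induced by the aryl hydrocarbon receptor, was at 34.0, 29.0 and 27.6 CPM in control and 139, 140 and 168 CPM in senescent replicates 1, 2 and 3. Its log2 fold change was 2.30 (SE 0.11, adjusted p = 8.67e-07, edgeR). *Sarm1*, whose product destroys NAD+ in axons that lose NMNAT2, rose from 1.43 ± 0.148 to 2.30 ± 0.268 CPM (adjusted p = 0.00307, edgeR). Among 8 genes of transport, clearance and hydride transfer, 4 were higher and 4 lower, beside the same 36.2% and 34.1%. *Nnmt*, which methylates nicotinamide and so takes it out of salvage, was at 4.59, 4.03 and 4.48 CPM in control and 13.0, 11.6 and 13.0 CPM in senescent replicates 1, 2 and 3. *Aox1*, an oxidase that acts on the methylated product, was at 2.55, 2.63 and 2.68 CPM in control and 13.9, 13.8 and 15.1 CPM in senescent libraries. The groups were far apart for both genes, with log2 fold changes of 1.52 and 2.45 (adjusted p = 3.69e-06 and 1.78e-07, edgeR).

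**Figure D5:**
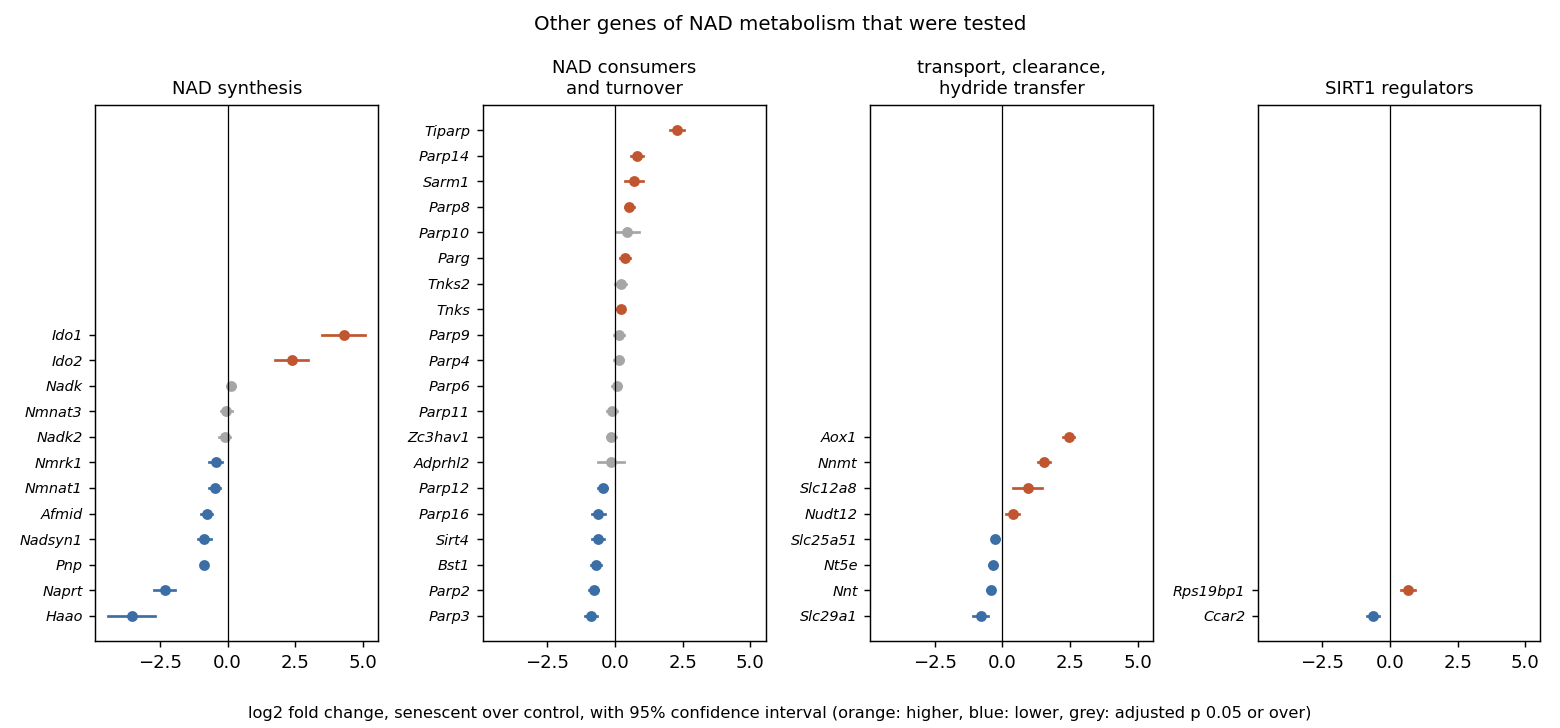
The log2 fold change, senescent over control, is shown with its 95% confidence interval for the 42 tested genes of the further list, in 4 panels by role (orange, higher; blue, lower; grey, adjusted p of 0.05 or over). *Ido1*, *Ido2*, *Aox1*, *Tiparp* and *Nnmt* lie beyond 1, and *Haao* and *Naprt* beyond -1.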

How the data were processed

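Paired reads of 100 bases were mapped by the authors with STAR (MAPRSeq workflow, mm10) and counted per gene with Subread. They deposited raw counts, with a gene length in bases, for 3 control and 3 senescent libraries. The strand setting, the handling of multi-mapping reads and the annotation release are not given in the sources used here. Here, low genes were dropped with filterByExpr, and the rest were scaled by TMM and compared with edgeR 4.0.16 (R 4.3.3), quasi-likelihood test in its robust form, two-sided, with the group as the only term and Benjamini-Hochberg adjustment over 17589 genes. The code was tested on simulated data. Standard errors and intervals derive from the F statistic. GC content came from the GENCODE M21 transcript nearest in length to the deposited gene length. Promoters were from RefSeq (GRCm38.p6).

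The 10 genes and all lists were chosen with earlier results of these data known, and the lists were written from general knowledge. Named were the 10 genes, from the further list up to 4 genes in each direction with the smallest p among those past 2-fold, *Cdkn1a*, *Mki67*, *Arntl*, the leading marker of each list and the 3 genes most like *Nampt* and *Sirt1*. All other genes, including markers at or near 0 and genes that share exon bases, were named after their values were seen. Alternatives were RLE scaling, library size alone, no filter, DESeq2 1.42.0, the exact test of edgeR, a minimum of 10 counts in every library, a replicate block and leaving out each library. A GC term and GENCODE M21 lengths were added after seeing the data.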

Additional observations from a re-analysis of the deposited data

How the results depend on the processing

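Over 14 alternatives for each of the 10 genes, the calls of *Nmnat2*, *Sirt1*, *Parp1*, *Sirt6* and *Cd38* and their directions held in all, with adjusted p from 0.000497 to 0.0439 for *Sirt1*. *Sirt2* and *Sirt5* kept their direction without passing. The sign changed in 12 of 140 values, in *Sirt3*, *Sirt7* and *Nampt*, where the cause was not tested. *Sirt3* had log2 fold changes of 0.00070 with RLE scaling, 0.058 with library size alone, 0.030 with at least 10 counts in every library, 0.0017 with DESeq2 and 0.13 with the GC term, and between -0.11 and 0.14 when 1 library was left out. *Sirt7* was at 0.033 with the GC term. *Nampt* was at -0.16 with the GC term and between -0.10 and 0.092 when 1 library was left out. It passed as lower with the GC term and without senescent replicate 3, which made 4 lower genes in place of 3. Among all genes, 6351 of 17425 and 6643 of 17779 were lower in these settings, against 6005 of 17589 in the report. With the limits of the study's methods (unadjusted p under 0.05, fold change over 2), 1 of the 10 genes was higher and 2 were lower. Of the 42 further NAD genes tested, 5 were higher and 2 lower. Among all genes, 3134 (17.8%) were higher and 2166 (12.3%) lower. These counts are smaller by the construction of a fold limit. Deviations of same-numbered libraries from their group means had correlations of -0.15, 0.14 and -0.12 for replicates 1, 2 and 3. The senescent deviations were led by replicate 3, so these values cannot tell whether the numbers are a pairing. With the replicate block, 2 of the 10 genes were higher and 3 lower, and 12 and 18 of the further NAD genes. Of all 17589 genes, 5964 were higher and 5660 lower with this block. Over the other alternatives without a fold limit, 12 to 18 of the further NAD genes were higher and 17 to 21 lower (13 and 18 in the report). The counts were 16 and 21 both for the GC term and without senescent replicate 3. Over the same alternatives, 5151 to 7705 of all genes were higher and 5284 to 6643 lower, with 15205 to 29776 tested. With GENCODE M21 lengths, levels per length moved by more than the SD for *Sirt2*, *Sirt3*, *Sirt5* and *Cd38* in both groups and for *Nampt* in control cells, and the shares of all 6 sirtuins moved by more than the SD. RNA levels at 1 time point say nothing of enzyme activity or NAD+.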
